A study of Mus musculus with 20 samples.

Results

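The genes described here are interferon-stimulated genes and genes of the MHC class I antigen presentation pathway in old mouse muscle. They were chosen by name: every gene of the count table whose symbol stands on a list of 40 symbols was taken, and each symbol matched a single gene, so 40 of the 22660 genes measured are members. By role they are 4 sensors of foreign or misplaced nucleic acid, 7 genes of interferon signaling and its feedback, 18 antiviral effectors, 3 guanylate-binding proteins, 5 genes that cut and carry peptides for MHC class I, and 3 chains of the MHC class I molecule itself.

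Interferons are secreted proteins that cells release when they sense viral or displaced nucleic acid, and that immune cells release when activated. Through their receptors they switch on the STAT and IRF transcription factors, which raise a shared set of antiviral genes and the machinery that shows peptides on MHC class I. Resting muscle fibers are known to carry little MHC class I, and its rise is a familiar feature of inflamed muscle.

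RNA was sequenced from whole plantaris muscle of 20 old mice, labelled 2 years of age and, by the methods of the study, male C57BL/6 J. There were 4 groups of 5 different animals: vehicle-treated sham, D + Q-treated sham, vehicle-treated MOV and D + Q-treated MOV. MOV is mechanical overload of the plantaris, made by cutting away part of its synergists, the gastrocnemius and soleus, while sham surgery opened the skin only, and all muscles were taken on day 14. D + Q is dasatinib at 5 mg/kg with quercetin at 50 mg/kg, a senolytic cocktail meant to clear senescent cells, given by gavage on days 7 and 10 after MOV; for the sham mice the treatment text gives days 7 and 10 and the design text days 7 and 14. The total count per mouse ran from 17887532 to 26234518 in vehicle sham, from 18535681 to 23468048 in D + Q sham, from 18260903 to 22092838 in vehicle MOV and from 18879818 to 23076398 in D + Q MOV. Levels are given as CPM, which give a gene's count as a rate within its library so that libraries of different depth can be compared, after TMM scaling, a correction for genes that take an uneven share of reads. The tissue label matched its markers, since 9 muscle fiber genes together held 141328 CPM on average in vehicle sham and 93366 CPM in vehicle MOV, with Myh4 and Acta1 the most abundant.

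The promoters of the members were searched for letters known from the interferon pathway. RefSeq promoter windows of 300 bases on the GRCm38.p6 build, from 250 bases before to 50 after the gene's start, were at hand for 28 of the 40 members. The search covered both strands and looked for the core of the interferon-stimulated response element (ISRE), written here as GAAA, any 2 bases, GAAA, which spans 10 letters and is the docking sequence of complexes that contain IRF9. The windows were also searched for the gamma-activated site (GAS), TTCNNNGAA, which binds STAT dimers and reads the same on both strands. The ISRE letters were found in 14 of the 28 members, or 50%, against 1079 of all 27025 genes with a window, or 3.99%. The GAS letters were found in 7 of the 28, or 25%, against 2582 of all genes with a window, or 9.55%. Each share counts a gene when any of its windows matched. Irf1, Irf9, Ifit2, Gbp3 and H2-K1 have 2 windows each. Oas1a, Bst2 and Gbp7 held both and 10 members held neither. These matches describe the letters of the window and do not show that a factor binds there. Only exact matches were sought, so a window without a match may still hold a variant of the element.

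A set of 6 windows is printed in lower case with the matches in capitals, because their genes carry the values that follow. Gbp7 was taken as the guanylate-binding protein with the most matches, and B2m as the only class I chain with an ISRE match. The windows are those of Isg15 and Oas1a among the effectors, the near-copies Ifit3 and Ifit3b, Gbp7 and B2m. They lie at chr4:156200769-156201068 (minus strand), chr5:120907476-120907775 (minus strand), chr19:34583279-34583578 (plus strand), chr19:34607707-34608006 (plus strand), chr3:142530086-142530385 (plus strand) and chr2:122147437-122147736 (plus strand), in that order. Each is written from 5′ to 3′ along the gene.
Isg15: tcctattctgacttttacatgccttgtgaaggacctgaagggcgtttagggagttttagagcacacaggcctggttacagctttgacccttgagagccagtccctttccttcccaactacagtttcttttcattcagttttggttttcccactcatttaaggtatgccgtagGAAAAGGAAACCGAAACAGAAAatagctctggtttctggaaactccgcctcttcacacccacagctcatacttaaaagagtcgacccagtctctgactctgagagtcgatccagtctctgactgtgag
Oas1a: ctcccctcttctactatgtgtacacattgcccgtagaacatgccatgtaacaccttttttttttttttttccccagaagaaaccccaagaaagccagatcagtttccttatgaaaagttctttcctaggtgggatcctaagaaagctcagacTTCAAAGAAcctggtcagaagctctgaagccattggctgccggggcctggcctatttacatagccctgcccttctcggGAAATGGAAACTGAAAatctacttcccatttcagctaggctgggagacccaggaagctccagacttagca
Ifit3: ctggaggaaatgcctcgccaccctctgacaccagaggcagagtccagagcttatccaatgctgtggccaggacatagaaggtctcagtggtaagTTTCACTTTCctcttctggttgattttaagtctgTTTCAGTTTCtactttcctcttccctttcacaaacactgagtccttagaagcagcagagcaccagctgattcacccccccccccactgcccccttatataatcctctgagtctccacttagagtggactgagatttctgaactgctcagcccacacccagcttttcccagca
Ifit3b: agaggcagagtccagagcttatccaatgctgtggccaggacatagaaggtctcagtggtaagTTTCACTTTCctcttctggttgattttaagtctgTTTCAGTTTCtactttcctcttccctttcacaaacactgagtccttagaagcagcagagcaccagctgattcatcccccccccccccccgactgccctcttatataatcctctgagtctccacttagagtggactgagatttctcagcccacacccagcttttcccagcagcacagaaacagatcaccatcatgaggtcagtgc
Gbp7: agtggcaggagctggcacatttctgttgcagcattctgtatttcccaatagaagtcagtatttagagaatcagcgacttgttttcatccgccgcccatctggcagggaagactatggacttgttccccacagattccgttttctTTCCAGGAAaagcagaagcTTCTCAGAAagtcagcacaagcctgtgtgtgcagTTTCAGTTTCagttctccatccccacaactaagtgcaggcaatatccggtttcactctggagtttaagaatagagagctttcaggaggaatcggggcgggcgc
B2m: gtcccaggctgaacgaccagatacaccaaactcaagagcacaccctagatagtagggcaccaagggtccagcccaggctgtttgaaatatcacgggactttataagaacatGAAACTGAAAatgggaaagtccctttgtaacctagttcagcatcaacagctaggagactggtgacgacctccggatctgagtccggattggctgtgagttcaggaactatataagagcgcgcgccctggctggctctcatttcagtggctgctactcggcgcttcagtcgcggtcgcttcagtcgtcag

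In Isg15 the capitals are 3 overlapping ISRE matches from base -78 to base -57 relative to the start. In Oas1a a GAS match lies at -98 to -90 and overlapping ISRE matches at -20 to -5. Ifit3 and Ifit3b carry the same arrangement of 2 ISRE matches, shifted from -156 and -122 in Ifit3 to -188 and -154 in Ifit3b. Gbp7 has GAS matches from -106 and -87 and an ISRE match from -53, and the ISRE letters were also found in Gbp2 and Gbp3, so in 3 of the 3 guanylate-binding proteins. B2m has its match at -139 to -130. None of the 4 windows of the peptide processing genes held an ISRE match, and Psmb8 held a GAS match. H2-K1, H2-D1 and Irf7 had no exact match to either motif. On a list of other interferon-stimulated genes, 24 of the 47 genes with a window, or 51.1%, held the ISRE letters. Members without a window are Dhx58, Zbp1, Usp18, Parp9, Parp14, Oas2, Mx1, Mx2, Ifi27, Rtp4, Ly6e and Tap2.

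**Figure D1:**
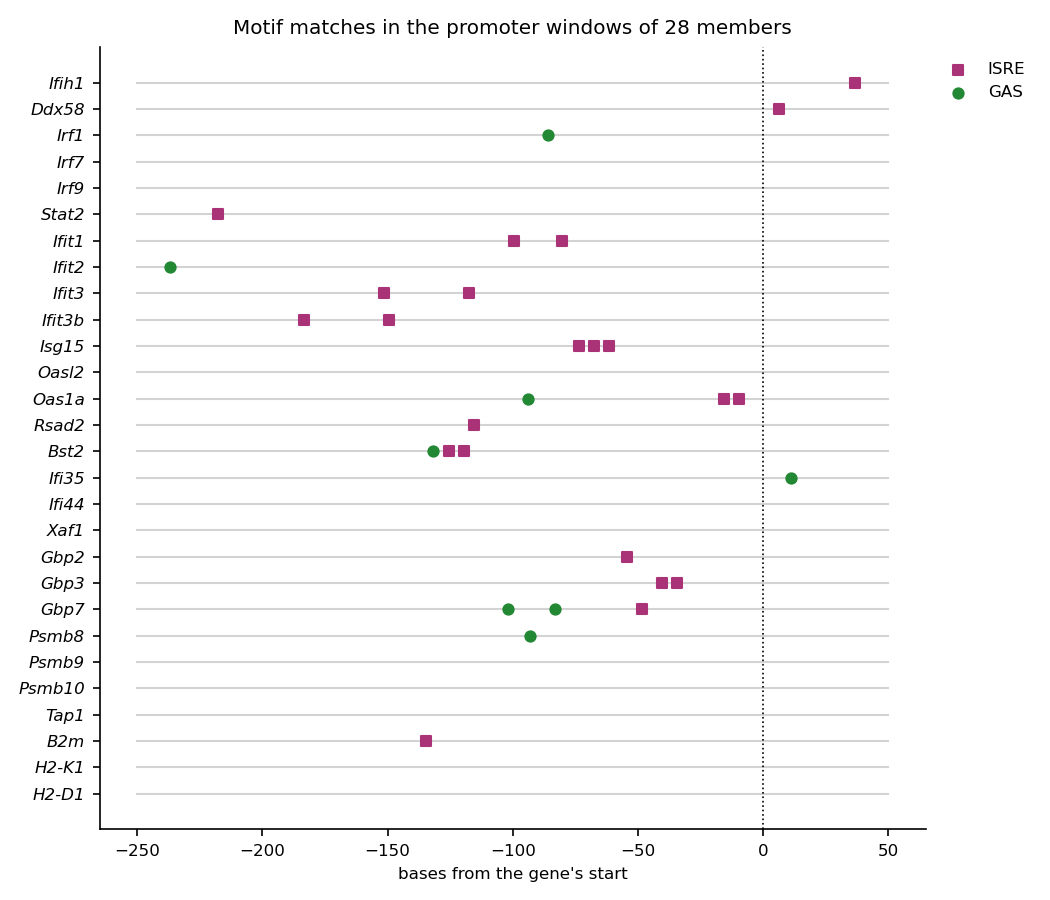
Position of ISRE (squares) and GAS (circles) matches in the promoter windows of 28 members, with distance from the gene's start in bases on the horizontal axis and a line for each gene. Matches appear in 18 of the 28 members, and in Isg15, Gbp2, Gbp3 and Gbp7 the ISRE matches lie within 78 bases before the start.

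The 40 members differ widely in level, which is comparable between genes only per length. The length used is that of all annotated exons of a gene together, not of the transcripts expressed, so the order depends on the annotation. In CPM per kilobase of exon, over the 39 members with a matched gene model, the MHC class I chains were highest: B2m, the light chain that every class I molecule needs, stood at 35.8 ± 8.57 (SD, n = 5) in vehicle sham. H2-K1 and H2-D1, the heavy chains that hold the peptide, stood at 28.2 ± 5.39 and 27.7 ± 5.32 CPM per kilobase in vehicle sham, a difference within their spread. These 3 genes made up 61.9% of the summed level per length of the members in vehicle sham, 62.5% in D + Q sham, 60.7% in vehicle MOV and 61.8% in D + Q MOV. The median member stood at 1.09 CPM per kilobase in vehicle sham, and the lowest, Mx1, at 0.0730. In MOV the lowest were Mx2 at 0.298 with vehicle and Ifi44 at 0.271 with D + Q.

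Single mice stood out before any group was compared. Over the 40 members the mean log2(CPM + 0.5) per mouse averaged 2.43 ± 0.34 in vehicle sham, 2.24 ± 0.22 in D + Q sham, 3.17 ± 0.41 in vehicle MOV and 3.32 ± 0.34 in D + Q MOV (SD, n = 5 each). Vehicle MOV mouse 4 had the highest mean of all 20 mice, 3.84, and was the highest mouse of its group in 35 of the 40 members (87.5%), where it was highest in 29.8% of 15700 genes. D + Q MOV mouse 2 was highest of its group in 24 members and mouse 3 in 14. In sham muscle, vehicle mouse 4 led in 21 members and mouse 5 in 15, and D + Q mouse 4 led in 23. The members also varied more within groups than genes at large: the median SD of log2(CPM + 0.5) was 0.38, 0.34, 0.45 and 0.41 over the members against 0.18, 0.17, 0.21 and 0.16 over all genes, in sham with vehicle, sham with D + Q, MOV with vehicle and MOV with D + Q. The members were not set against genes of like level, and counting noise is larger in members with few counts. Ifi27, a small mitochondrial and nuclear envelope protein, had the smallest SD of the members in each group. Vehicle MOV mice 2 and 4 also stood apart from their group across the whole table, at 27.5 and 69.3 on the main principal component (75.8% of the variance) where the other vehicle MOV mice lay between 45.7 and 51.2, so results are also given without them.

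**Figure D2:**
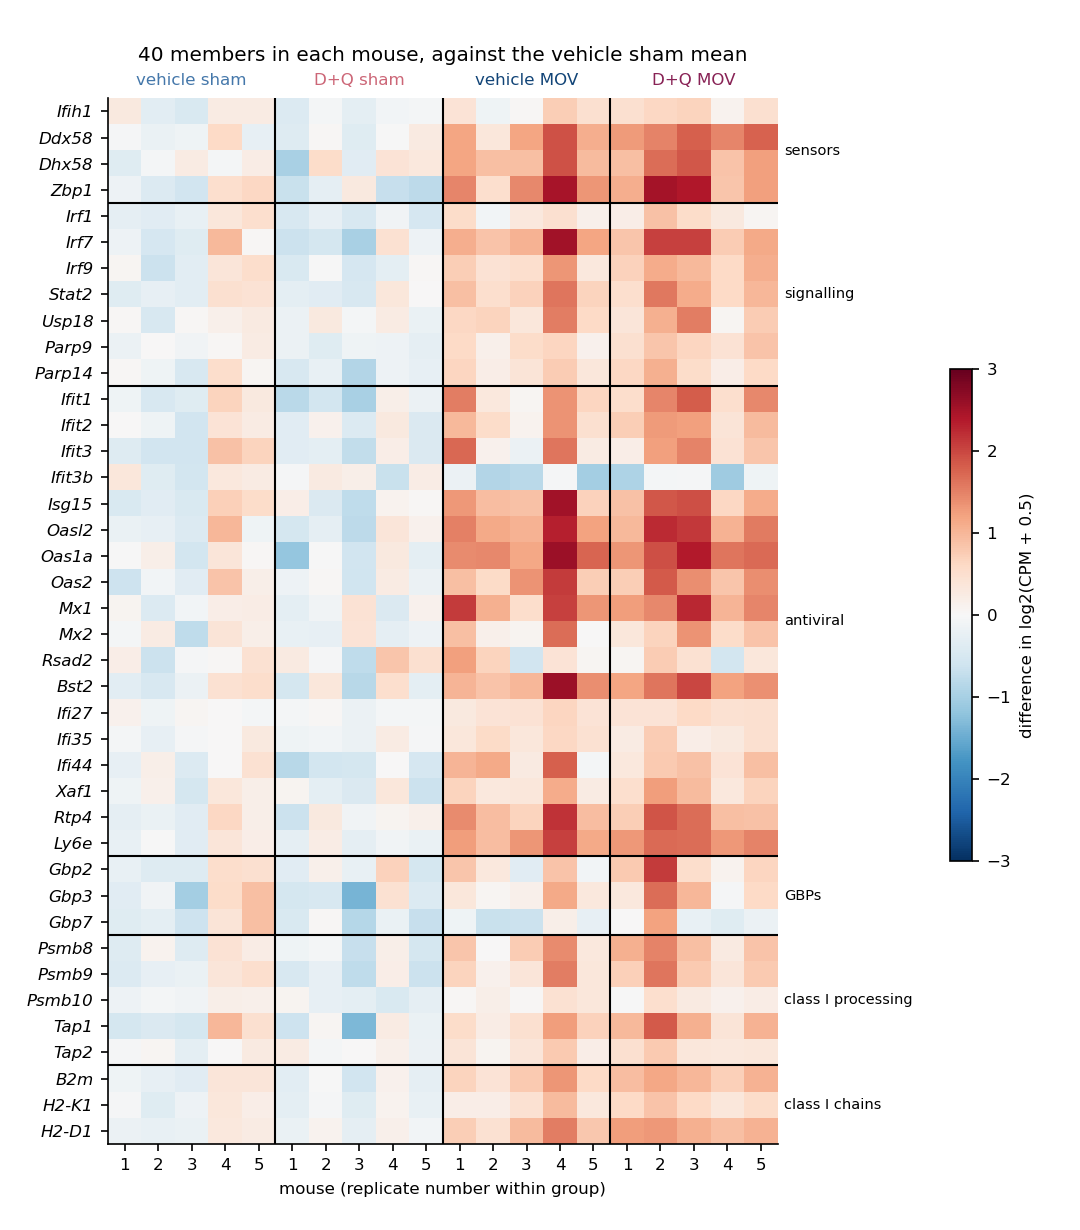
Heat map of the 40 members (lines, ordered by role) in the 20 mice (columns, by group), where color gives log2(CPM + 0.5) minus the mean of the 5 vehicle sham mice, from -3 to 3. Most members are raised in the 10 MOV mice, and vehicle MOV mouse 4, D + Q MOV mice 2 and 3 and vehicle sham mice 4 and 5 form the brightest columns of their groups.

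Vehicle-treated MOV and sham muscle were compared to see how the interferon genes of old muscle differed after overload without the drug. MOV mice had synergist muscle cut away and sham mice did not, so this design does not separate load from surgical injury. After 14 days of overload most sensors, signaling genes and effectors and all MHC class I chains stood higher. The largest fold changes were those of Mx1 and Oas1a, antiviral effectors with few counts at rest that entered the test through MOV mice, and those of the abundant class I genes were smaller. The guanylate-binding proteins, which coat and break the vacuoles of intracellular microbes and answer chiefly to interferon gamma, did not pass the test. No member passed it downward.

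Of the 40 members, all tested, 29 rose and 0 fell at an adjusted p under 0.05 by edgeR's quasi-likelihood test, where the adjusted p is the Benjamini-Hochberg value over all genes tested. Over the 14601 genes tested, 30.7% rose and 29.8% fell, so the members' share upward is above that of all genes and their share downward below it. At an unadjusted p under 0.05 the members counted 29 up and 1 down against 32.4% and 31.8% of all genes, and DESeq2 counted 29 up and 1 down. All 5 MOV mice exceeded all 5 sham mice in 13 members and the reverse held in 0, against 23.6% and 22.8% of all genes. The median log2 fold change was 0.79 over the members and -0.015 over all genes, and 38 of the 40 lay above 0. Dhx58, Zbp1, Oas1a, Mx1, Mx2 and Ifi44 reached 10 counts in fewer than 5 vehicle sham mice, so they entered the test through MOV mice, which favors members that are higher there. By role 3 of 4 sensors, 6 of 7 signaling genes, 14 of 18 effectors, 0 of 3 guanylate-binding proteins, 3 of 5 processing genes and 3 of 3 chains rose. With 1 mouse left out at a time the count upward ran from 21 to 30 and the median from 0.56 to 0.94. The count was 21 without vehicle sham mouse 3 and 21 without vehicle MOV mouse 4, and 21 of the 29 members passed in every such fit in which they were tested. With vehicle MOV mice 2 and 4 both left out, an alternative chosen after the data were seen, 24 of 39 members rose with a median of 0.68.

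**Figure D3:**
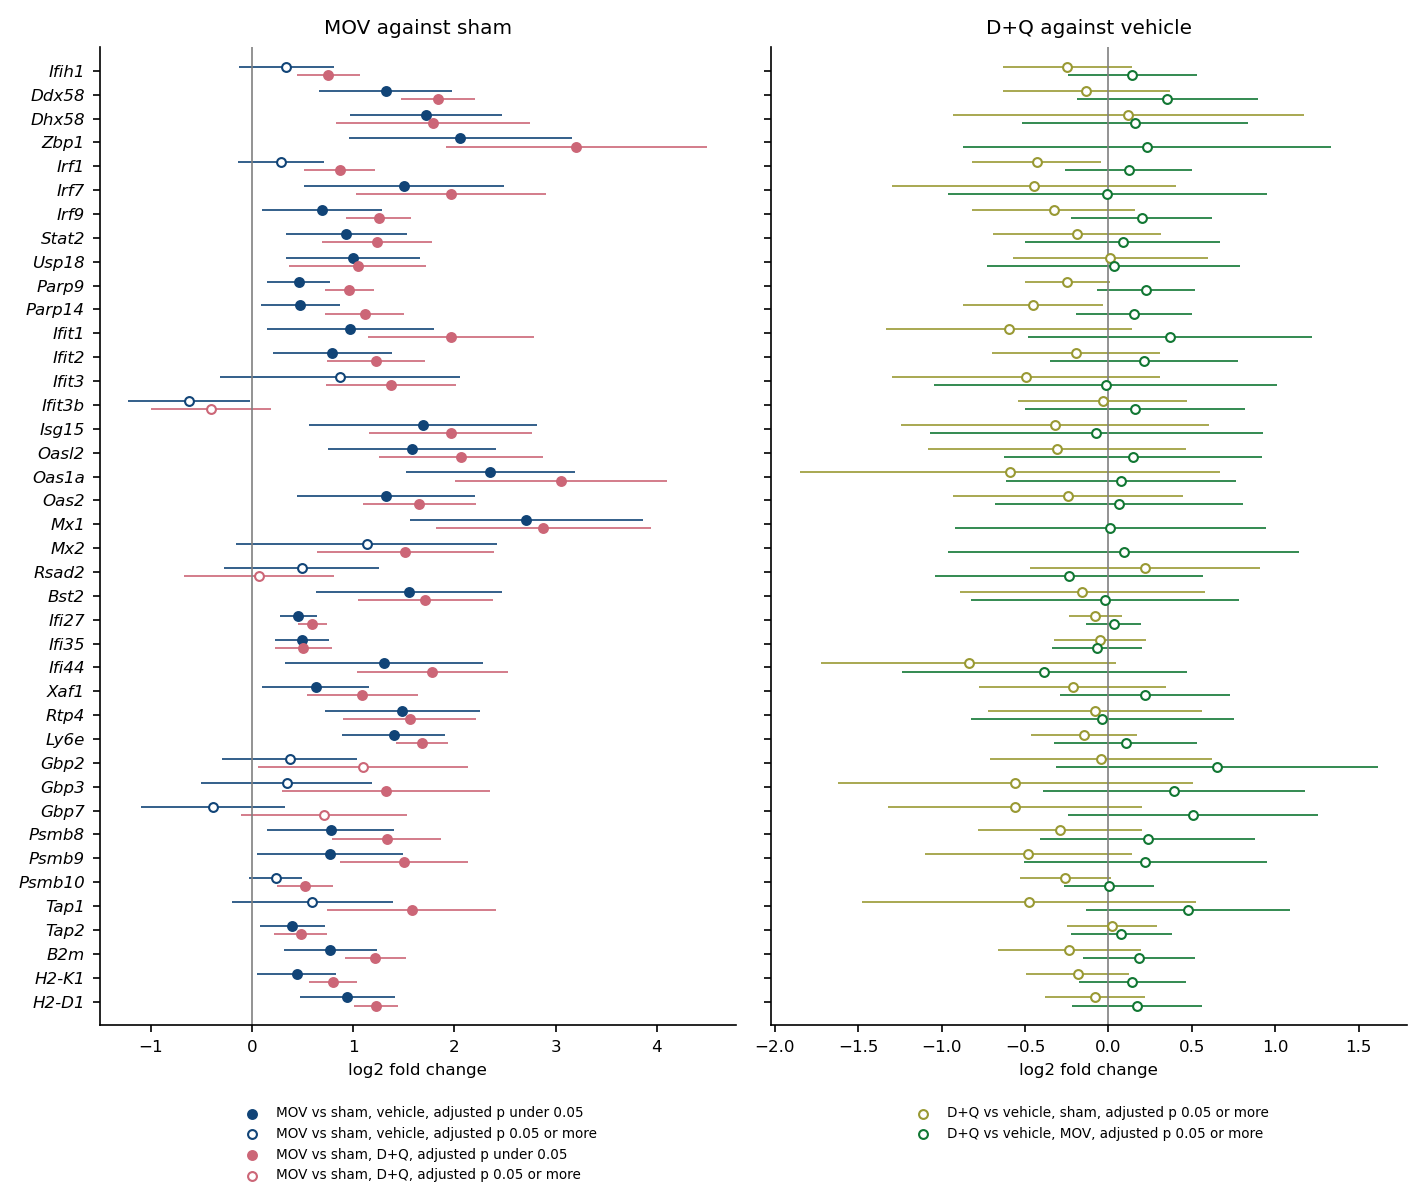
Log2 fold changes of the 40 members with 95% confidence intervals, for MOV against sham on the left (vehicle and D + Q) and D + Q against vehicle on the right (sham and MOV), with filled points at an adjusted p under 0.05. On the left 29 points are filled for vehicle and 36 for D + Q, and on the right 0 are filled in either comparison.

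Among the sensors the largest rises were those of Zbp1, which recognizes Z-form nucleic acid, and Dhx58, the helicase LGP2 that tunes the RNA sensors. Zbp1 had 0.691 ± 0.451 CPM in vehicle sham and 2.86 ± 1.72 in vehicle MOV (SD, n = 5), with a log2 fold change of 2.06 (SE 0.479, adjusted p 0.00210) and with overlap between the groups. Dhx58 had 0.695 ± 0.203 CPM and 2.26 ± 0.960 CPM, with no overlap and a log2 fold change of 1.73 (SE 0.325, adjusted p 0.000310). Ddx58, the RNA sensor RIG-I, also rose by 1.32 (adjusted p 0.00133), while its relative Ifih1, the sensor MDA5, stood at 0.34 with an adjusted p of 0.162 and, of the fits with 1 mouse left out, passed in that without vehicle MOV mouse 2 (0.47, adjusted p 0.0484). The sensors' summed level was 10.5 ± 2.42 CPM in vehicle sham and 20.6 ± 7.62 CPM in vehicle MOV.

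Of the signaling genes Irf7, the transcription factor that amplifies interferon production, rose most. Its level in vehicle sham mice 1 to 5 was 3.22, 2.42, 2.71, 7.63 and 3.71 CPM, and in vehicle MOV mice 1 to 5 it was 8.27, 6.95, 8.06, 23.1 and 8.87 CPM. Mouse 4 was highest in each group, and sham mouse 4 lay above the lowest MOV mouse, so the groups overlap in that mouse alone. The log2 fold change was 1.504 (SE 0.428, adjusted p 0.0114). Usp18, a protease that strips ISG15 from proteins and damps the interferon receptor, had 1.51 ± 0.361 CPM in sham and 3.00 ± 1.28 CPM in MOV without overlap, a log2 fold change of 1.00 (SE 0.285, adjusted p 0.00696). Stat2, Irf9, Parp9 and Parp14 rose by 0.94, 0.70, 0.46 and 0.48, and Irf1, the factor that drives class I and proteasome genes, stood at 0.29 with an adjusted p of 0.188. Stat2 and Irf9 act together in a DNA-binding complex, and Parp9 and Parp14 are of the ADP-ribosyl transferase family. Irf9 missed the threshold without any 1 of vehicle sham mice 1, 2 and 3 or vehicle MOV mice 1 and 4 (log2 fold change 0.50 to 0.71, adjusted p 0.0548 to 0.0767). Parp14 missed it without vehicle sham mouse 2 or 3 or vehicle MOV mouse 1 or 4 (adjusted p 0.0521 to 0.0599), and among these fits Irf1 passed it without vehicle sham mouse 5 (0.44, adjusted p 0.0431).

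Mx1 and Oas1a had the largest rises of all members. Mx1 belongs to the dynamin-like guanosine triphosphatases known for trapping viral particles, and Oas1a encodes an enzyme that makes the oligoadenylates which activate RNase L. In the annotation, 2 of the 10 Mx1 transcripts are coding and 2 are marked as loss of function. Of the 4 Mx2 transcripts 0 are coding and 2 are so marked. The values given here are of RNA and do not show a working protein. Vehicle sham mice 1 to 5 had 0.276, 0.0576, 0.193, 0.350 and 0.353 CPM of Mx1, and vehicle MOV mice 1 to 5 had 2.65, 1.04, 0.565, 2.54 and 1.35 CPM. Every MOV mouse lay above every sham mouse, though the sham values rest on between 1 and 6 counts per mouse. The log2 fold change was 2.71 (SE 0.498, adjusted p 0.000245). For Oas1a the sham values were 0.598, 0.748, 0.258, 0.932 and 0.648 CPM and the MOV values 2.49, 2.54, 1.98, 6.08 and 3.25 CPM. Again the groups did not overlap, with MOV mouse 4 the highest, and the log2 fold change was 2.36 (SE 0.363, adjusted p 5.06e-05). Mx1 was not tested when any vehicle MOV mouse was left out, since it then reached 10 counts in too few mice.

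Isg15, a ubiquitin-like protein that is attached to newly made proteins, is the effector that names the family. Sham mice 1 to 5 given vehicle had 0.644, 0.748, 0.645, 2.10 and 1.83 CPM, and MOV mice 1 to 5 given vehicle had 3.41, 2.49, 2.40, 8.58 and 2.07 CPM. MOV mouse 4 was far above its group, and sham mouse 4 lay just above MOV mouse 5, which is the only overlap. Isg15 rose by 1.69 on the log2 scale (SE 0.487, adjusted p 0.00976). The other effectors that rose lay between 0.46 (Ifi27) and 1.58 (Oasl2): Ifit1, Ifit2, Oasl2, Oas2, Bst2, Ifi27, Ifi35, Ifi44, Xaf1, Rtp4 and Ly6e. Ifit1 missed the threshold without vehicle sham mouse 1, 2 or 3 or vehicle MOV mouse 1 or 4 (log2 fold change 0.74 to 0.92, adjusted p 0.0688 to 0.0797). Xaf1 missed it without vehicle sham mouse 1 or 3 or vehicle MOV mouse 1 or 4 (0.45 to 0.62, adjusted p 0.0509 to 0.0789).

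Ifit3, Ifit3b, Mx2 and Rsad2 did not pass. Ifit3 and Ifit3b encode proteins that bind to viral RNA complexes, and Rsad2 is viperin, which makes a chain-terminating nucleotide. Ifit3b had the largest fold change downward: the vehicle sham values were 6.95, 4.09, 3.48, 6.76 and 6.48 CPM and the vehicle MOV values 4.70, 2.698, 2.83, 5.25 and 2.41 CPM. The groups overlap, with sham mice 2 and 3 inside the MOV range. Its log2 fold change was -0.62 (SE 0.259) at an adjusted p of 0.0515. It passed the threshold in 4 of the 10 fits with 1 mouse left out, those without vehicle sham mouse 2 or 3 or vehicle MOV mouse 1 or 4, the lowest adjusted p being 0.0157 (log2 fold change -0.78) without vehicle MOV mouse 4. Its neighbor Ifit3 stood at 0.87 with an adjusted p of 0.169. The transcripts of this pair are 97.5% identical over 2042 bases and 36.1% of the 75-base windows of Ifit3 also occur in Ifit3b, so how reads were divided between them is uncertain, and whether this bears on their opposite signs was not tested. Rsad2 stood at 0.49 (adjusted p 0.217) and, of those fits, passed in that without vehicle MOV mouse 3 (0.70, adjusted p 0.0438), and Mx2, a relative of Mx1, stood at 1.14 (adjusted p 0.0935).

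**Figure D4:**
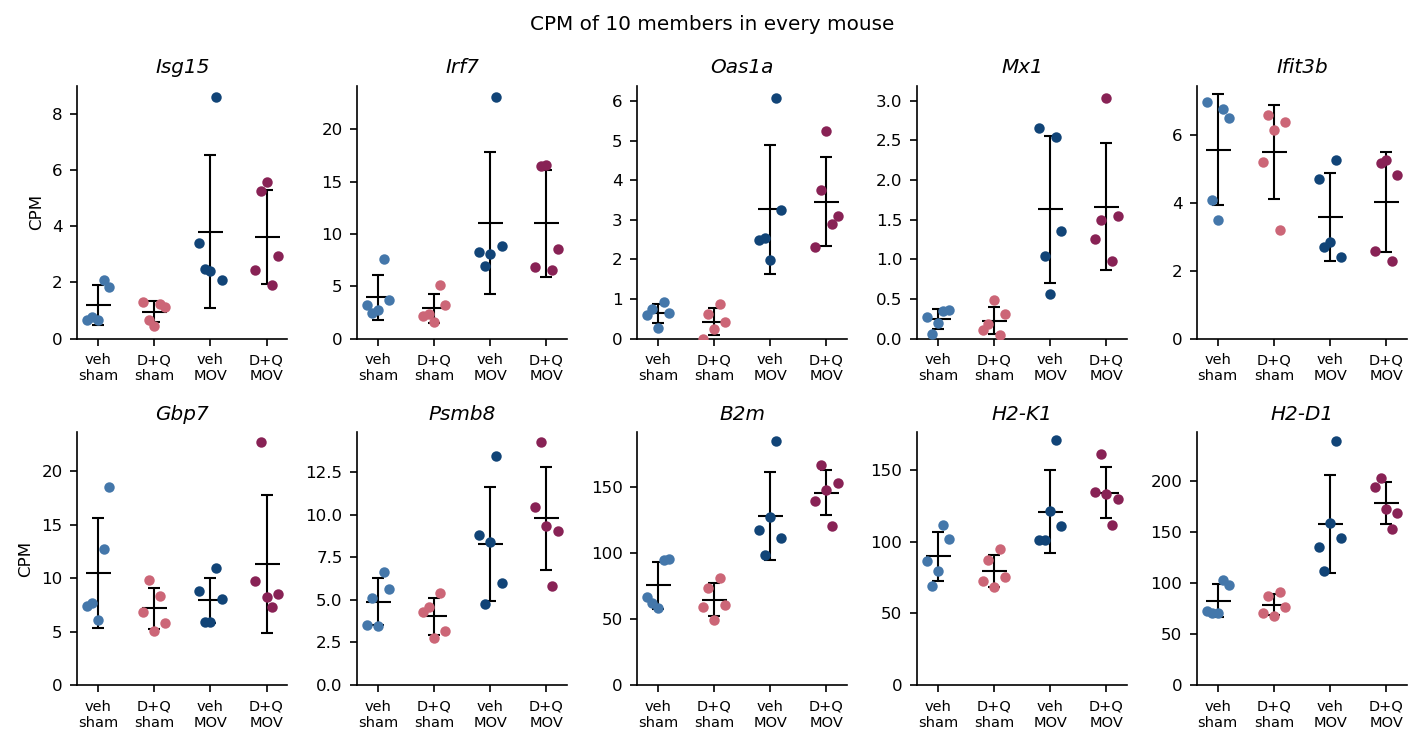
Level in CPM of the 10 members given mouse by mouse, with a point for each mouse, grouped as sham and MOV with each treatment, and the mean ± SD of 5 mice. Mx1 and Oas1a separate MOV from sham in both treatments, and Ifit3b and Gbp7 do not.

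Guanylate-binding proteins had a summed level in vehicle MOV of 23.7 ± 7.31 CPM against 22.9 ± 10.5 CPM in vehicle sham. Gbp7 had the lowest fold change of the 3, with 7.41, 7.71, 6.06, 12.7 and 18.6 CPM in the sham mice and 8.84, 5.86, 5.94, 10.9 and 8.03 CPM in the MOV mice. The ranges overlap, and sham mice 4 and 5 lay above every MOV mouse. Its log2 fold change was -0.39 (SE 0.309, adjusted p 0.303), and without vehicle sham mouse 5 it was -0.081. Gbp2 and Gbp3 stood at 0.37 and 0.35, with adjusted p of 0.288 and 0.438.

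Peptides for MHC class I are cut by the immunoproteasome, whose induced subunits are Psmb8, Psmb9 and Psmb10, and pumped into the endoplasmic reticulum by Tap1 and Tap2. Psmb8 had 3.54, 5.12, 3.48, 6.64 and 5.65 CPM in vehicle sham mice 1 to 5 and 8.84, 4.77, 8.39, 13.4 and 5.999 CPM in vehicle MOV mice 1 to 5. MOV mouse 4 was highest, and MOV mice 2 and 5 lay inside the sham range. The log2 fold change was 0.78 (SE 0.273, adjusted p 0.0256), and it missed the threshold without vehicle sham mouse 1 or 3 (adjusted p 0.0650 and 0.0622). Psmb9 rose by 0.77 (SE 0.312, adjusted p 0.0460), from 2.79 ± 0.950 to 4.69 ± 2.34 CPM. Without vehicle MOV mouse 4 it was 0.44 with an adjusted p of 0.137, and it also missed the threshold without vehicle sham mouse 1, 2 or 3 or vehicle MOV mouse 1 (adjusted p 0.0665 to 0.109). Tap2 rose by 0.40 (adjusted p 0.0217) and missed the threshold without vehicle sham mouse 3 or vehicle MOV mouse 4 (adjusted p 0.0618 and 0.0508). Tap1 stood at 0.60 with an adjusted p of 0.156 and Psmb10 at 0.23 with 0.0919. Among the fits with 1 mouse left out, Tap1 passed without vehicle sham mouse 4, at 0.95 with an adjusted p of 0.0108, and Psmb10 without vehicle MOV mouse 1 or 3, at 0.30 in each.

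The class I chains themselves rose in each case. B2m had 66.9, 61.9, 58.3, 94.3 and 95.4 CPM in the vehicle sham mice and 117.6, 98.4, 127.2, 184.3 and 111.0 CPM in the vehicle MOV mice. No MOV mouse fell to the sham range, and the log2 fold change was 0.77 (SE 0.198, adjusted p 0.00598). H2-D1 had 72.8, 70.4, 70.7, 102.6 and 97.7 CPM in sham and 135.5, 111.8, 158.3, 238.9 and 144.2 CPM in MOV, again without overlap. Its log2 fold change of 0.94 (SE 0.203, adjusted p 0.00209) was the largest of the 3. H2-K1 had 86.8, 68.7, 79.6, 111.8 and 101.7 CPM in sham and 101.2, 100.8, 121.3, 171.0 and 110.7 CPM in MOV. Sham mice 4 and 5 lay inside the MOV range, and the log2 fold change was 0.44 (SE 0.169, adjusted p 0.0391). H2-K1 missed the threshold without any 1 of vehicle sham mice 1, 2 and 3 or vehicle MOV mice 3 and 4, at an adjusted p of 0.0554 to 0.0841. Together the 3 chains went from 247.9 ± 50.2 to 406.5 ± 110.3 CPM.

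These samples are bulk muscle, so a higher level may come from more cells of a type or from more RNA per cell, and the data cannot tell these apart. Scaling bears on the counts: with library totals alone in place of TMM, 36 of 40 members rose in this comparison, but then 7683 of all genes rose and 1453 fell, so the share of calls that were upward was 84.1% in place of 50.8% and the median of all genes moved to 0.36. The members' median was then 1.18.

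D + Q-treated MOV and sham muscle ask the same of overload with the drug on board. Here too the antiviral program stood higher in overloaded muscle, and the rise reached every sensor, signaling gene, processing gene and class I chain. The largest fold changes were those of Zbp1 and Oas1a. These and Dhx58, Isg15, Mx1, Mx2 and Ifi44 reached 10 counts in fewer than 5 D + Q sham mice and so entered the test through MOV mice, which favors members that are higher there.

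Of the 40 members, 36 rose and 0 fell, where 34.4% of the 14913 genes tested rose and 30.9% fell. At an unadjusted p under 0.05 the members counted 37 up and 0 down against 35.6% and 32.4% of all genes, and DESeq2 counted 37 up and 0 down. In 30 members every MOV mouse exceeded every sham mouse and in 0 the reverse, against 26.2% and 26.9% of all genes. The median was 1.29 over the members and 0.023 over all genes, with 39 members above 0. All 4 sensors, 7 signaling genes, 5 processing genes and 3 chains rose, as did 16 of 18 effectors and 1 of 3 guanylate-binding proteins, Gbp3. Ifit3b, Rsad2, Gbp2 and Gbp7 did not pass, at log2 fold changes of -0.40, 0.071, 1.10 and 0.71 and adjusted p of 0.188, 0.861, 0.0591 and 0.108. With 1 mouse left out at a time the count ran from 35 to 37 and the median from 1.18 to 1.42. With total counts alone 38 members rose with a median of 1.65, and the median of all genes moved to 0.39 with 83.5% of calls upward in place of 52.6%.

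Zbp1 went from 0.372 ± 0.302 CPM in D + Q sham to 3.37 ± 2.11 CPM in D + Q MOV, without overlap, a log2 fold change of 3.20 (SE 0.559, adjusted p 0.000278). Ddx58 went from 3.02 ± 0.689 to 10.5 ± 1.67 CPM, also without overlap, a log2 fold change of 1.84 (SE 0.160, adjusted p 1.86e-08). For Irf7, D + Q sham mice 1 to 5 had 2.15, 2.38, 1.61, 5.15 and 3.21 CPM and D + Q MOV mice 1 to 5 had 6.85, 16.5, 16.6, 6.52 and 8.55 CPM. MOV mice 2 and 3 were high and all 5 lay above the sham mice, and the log2 fold change was 1.96 (SE 0.407, adjusted p 0.00188). Irf9, the DNA-binding part of the STAT complex, rose by 1.25 (SE 0.140, adjusted p 4.06e-07).

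In the effectors, Oas1a had 0, 0.609, 0.244, 0.875 and 0.408 CPM in the D + Q sham mice and 2.31, 3.75, 5.26, 2.90 and 3.10 CPM in the D + Q MOV mice. Sham mouse 1 had no count, which allows up to 3 counts, and all MOV mice lay above the sham range. The log2 fold change was 3.05 (SE 0.453, adjusted p 3.76e-05). Mx1 had 0.105, 0.183, 0.488, 0.0486 and 0.306 CPM in sham and 1.25, 1.49, 3.04, 0.982 and 1.55 CPM in MOV, without overlap, a log2 fold change of 2.88 (SE 0.459, adjusted p 2.63e-05). Isg15 had 1.31, 0.670, 0.439, 1.21 and 1.12 CPM in sham and 2.43, 5.24, 5.56, 1.92 and 2.92 CPM in MOV. MOV mice 2 and 3 were again the high ones, the groups did not overlap, and Isg15 rose by 1.96 (SE 0.351, adjusted p 0.000149). Ifit3b had 5.20, 6.58, 6.15, 3.21 and 6.37 CPM in D + Q sham and 2.58, 5.16, 5.26, 2.28 and 4.83 CPM in D + Q MOV, groups that overlap.

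Gbp3 rose by 1.33 (SE 0.445, adjusted p 0.0264), from 4.29 ± 2.23 to 10.4 ± 5.37 CPM, with overlap. It missed the threshold without D + Q sham mouse 1, 2 or 5 or D + Q MOV mouse 3, at an adjusted p of 0.0523 to 0.0594. Gbp7 had 6.88, 9.87, 5.07, 8.31 and 5.81 CPM in sham and 9.70, 22.7, 8.21, 7.32 and 8.55 CPM in MOV, where mouse 2 was more than all others and the rest overlapped with sham. With 1 mouse left out Gbp2 passed without D + Q sham mouse 4 or D + Q MOV mouse 4, at 1.36 and 1.28 with adjusted p of 0.0366 and 0.0332, and with all 10 mice it passed in DESeq2 at 1.08 (adjusted p 0.0229).

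Tap1, a transporter subunit, rose by 1.58 (SE 0.362, adjusted p 0.00320) and Psmb9, next to it in the genome, by 1.501 (SE 0.274, adjusted p 0.000188). Psmb8 had 4.31, 4.57, 2.73, 5.39 and 3.16 CPM in D + Q sham and 10.5, 14.3, 9.36, 5.81 and 9.03 CPM in D + Q MOV. The lowest MOV mouse was just above the highest sham mouse, and the log2 fold change was 1.33 (SE 0.235, adjusted p 0.000212). Psmb9 and Tap1 share 743 exonic bases on opposite strands, 19.6% of the exonic length of Psmb9 and 12.4% of that of Tap1, and the sources used do not say whether libraries kept the strand, so reads there may be counted for either gene.

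The class I chains followed. B2m had 59.0, 73.0, 49.2, 80.8 and 60.6 CPM in D + Q sham and 139.5, 166.6, 147.9, 120.4 and 152.7 CPM in D + Q MOV, a log2 fold change of 1.22 (SE 0.130, adjusted p 5.70e-06). H2-K1 had 72.6, 86.9, 68.2, 94.6 and 75.5 CPM in sham and 134.6, 161.4, 133.1, 111.7 and 130.1 CPM in MOV, a log2 fold change of 0.80 (SE 0.104, adjusted p 1.18e-05). H2-D1 had 70.7, 87.7, 67.9, 91.3 and 76.9 CPM in sham and 194.3, 203.3, 172.0, 153.2 and 168.8 CPM in MOV, a log2 fold change of 1.22 (SE 0.0949, adjusted p 2.67e-08). In each of the 3 all MOV mice lay above all sham mice. Their sum went from 223.0 ± 33.4 to 457.9 ± 52.0 CPM.

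D + Q and vehicle sham muscle show what the drug left behind in muscle that was not overloaded. Most members sat somewhat lower in the drug-treated mice, but none passed the test. The genes with the smallest p were a factor, Irf1, and Parp14 and Parp9 of the ADP-ribosyl transferase family.

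Of 37 members tested, 0 rose and 0 fell by edgeR, where 0.187% of 13926 genes rose and 0.0287% fell, and DESeq2 also counted 0. Mx1, Mx2 and Zbp1 reached too few counts to be tested. At an unadjusted p under 0.05 the members counted 0 up and 5 down, against 5.39% and 4.8% of all genes. In 0 members did the groups stand apart, in either direction, against 1.34% and 0.776% of all genes. The median over the members was -0.24 and 33 of 37 lay below 0, while the median of all genes was -0.0041. The median was -0.075 without vehicle sham mouse 4, one of the high sham mice, and between -0.33 and that value over all the fits with 1 mouse left out.

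Irf1 had 9.20 ± 2.67 CPM with vehicle and 6.88 ± 0.904 CPM with D + Q, a log2 fold change of -0.43 (p 0.0206, adjusted p 0.393). Parp14 stood at -0.45 (p 0.0247, adjusted p 0.415) and Parp9 at -0.25 (p 0.0391, adjusted p 0.463). Ifi44, an interferon-induced cytoplasmic protein, stood at -0.84 (p 0.0426, adjusted p 0.473) and Psmb10 at -0.26 (p 0.0426, adjusted p 0.473). Genes reported in every comparison were Isg15 at -0.32, Irf7 at -0.45, Psmb8 at -0.29, B2m at -0.24, H2-K1 at -0.18 and H2-D1 at -0.082, with adjusted p from 0.692 (Psmb8) to 0.888 (H2-D1). The 95% interval for B2m ran from -0.66 to 0.19.

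D + Q and vehicle MOV muscle is the comparison the study made in search of possible mechanisms of the greater growth under D + Q. For the interferon and class I genes the ranges of drug-treated and vehicle-treated mice overlapped in every member. Each group had mice high across the program, vehicle mouse 4 and D + Q mice 2 and 3. Gbp2, Gbp7 and Tap1 had the largest values above 0, and without D + Q MOV mouse 2 these were 0.15, 0.083 and 0.22.

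Of 40 members, 0 rose and 0 fell by edgeR, where 0% of 15238 genes rose and 0% fell, and DESeq2 also counted 0 members. At an unadjusted p under 0.05 the members counted 0 up and 0 down, against 4.19% and 4.61% of all genes. The groups stood apart in 0 members either way, against 0.748% and 0.755% of all genes. The median was 0.14 over the members, with 32 above 0, and 0.0020 over all genes. It was 0.38 without vehicle MOV mouse 4 and 0.038 without vehicle MOV mouse 2, which bound its values with 1 mouse left out, and 0.32 without both.

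Tap1 had 7.65 ± 2.33 CPM with vehicle and 10.7 ± 4.22 CPM with D + Q, a log2 fold change of 0.48 (p 0.0982, adjusted p 0.614). Parp9 stood at 0.22 (p 0.101, adjusted p 0.617), Gbp7 at 0.51 (p 0.148, adjusted p 0.658), Gbp2 at 0.65 (p 0.152, adjusted p 0.661) and Ddx58 at 0.35 (p 0.160, adjusted p 0.671). Isg15 stood at -0.072 with a 95% interval of -1.07 to 0.93, and Irf7 at -0.0067 with an interval of -0.96 to 0.95, so changes of up to about 1 on the log2 scale either way fit these data. Without vehicle MOV mouse 4 they stood at 0.46 and 0.44. The class I genes were bounded more tightly: Psmb8 stood at 0.24 (-0.41 to 0.88), B2m at 0.18 (-0.15 to 0.52), H2-K1 at 0.14 (-0.18 to 0.47) and H2-D1 at 0.17 (-0.22 to 0.56).

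Whether overload moved the members differently under D + Q was tested by the interaction of drug and overload over all 20 mice. The larger counts under D + Q are not by themselves a difference, since they come from separate comparisons. Each of the 4 groups serves in 2 of the 4 pairwise comparisons, so those comparisons share mice and are not independent. The members' mean was highest in D + Q MOV and lowest in D + Q sham.

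Of 40 members, 0 passed in either direction by edgeR, where 0.00637% of 15700 genes passed upward and 0.00637% downward, and DESeq2 counted 0 members. At an unadjusted p under 0.05 there were 4 up and 0 down, against 2.54% and 3.17% of all genes. The median was 0.41 and 38 of 40 lay above 0, while the median of all genes was -0.012. With 1 mouse left out it ran from 0.22, without vehicle sham mouse 4, to 0.62, without vehicle MOV mouse 4. The lowest p belonged to Parp9 at 0.47 (p 0.0121, adjusted p 0.791), Parp14 at 0.60 (p 0.0277, adjusted p 0.810), Irf1 at 0.54 (p 0.0429, adjusted p 0.855), Gbp7 at 1.06 (p 0.0452, adjusted p 0.855) and Tap1 at 0.94 (p 0.0913, adjusted p 0.862). Isg15, Irf7, Psmb8, B2m, H2-K1 and H2-D1 stood at 0.24, 0.43, 0.52, 0.41, 0.32 and 0.25, with adjusted p from 0.884 (B2m) to 0.991 (Isg15).

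Other genes of the pathway, taken from fixed lists, place the members. Of 21 interferon genes only Ifng has an entry in the table, and it never exceeded 0.175 CPM, too low to be tested. Of 15 receptor and JAK-STAT genes tested in vehicle MOV against sham, 8 rose and 5 fell, with a median of 0.53. Of all genes 30.7% rose and 29.8% fell, so the share of this list that fell is near that of all genes. The largest rises were Ptpn6 (2.76), the phosphatase SHP-1, Socs3 (2.45), an inhibitor of JAK kinases, and Ifnar2 (1.61), a chain of the type I receptor. The largest falls were Jak2 (-0.75), the kinase of the interferon gamma receptor, Pias1 (-0.49), a SUMO ligase that restrains cytokine signaling, and Ptpn11 (-0.39), the phosphatase SHP-2. Of 22 genes of nucleic acid sensing, 16 rose and 1 fell, with the endosomal receptors Tlr9 (2.45) and Tlr7 (2.43) and the kinase Ikbke (2.36) the largest rises and the adaptor Mavs (-0.23) the fall. Among sham mice alone 19 of the 22 had enough counts to be tested. The rest entered through MOV mice, which favors genes that are higher there.

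Of 22 other MHC class I genes tested, 7 rose and 3 fell, a share upward close to the 30.7% of all genes and a median of 0.12, with Pdia3 (1.63), a chaperone of class I loading, and the nonclassical chains H2-T23 (0.94) and H2-M3 (0.82) the largest rises. Rfxap (-0.35), a factor of MHC promoters, Erap1 (-0.35), a peptide trimming protease, and Psme3 (-0.31), a proteasome activator, fell. Of 54 other interferon-stimulated genes, 33 rose and 1 fell, with a median of 0.76. Among sham mice alone 51 genes of this list were tested, so some of the 54 entered through MOV mice, which favors rises. Oas3 (2.50), a larger oligoadenylate synthetase, Epsti1 (2.42), first found in epithelial-stromal contact, and Slfn8 (2.30), a Schlafen family gene, rose most, and Cd274 (-1.37), the checkpoint ligand PD-L1, fell. Under D + Q the counts for MOV against sham were 9 up and 5 down of 15, 17 up and 2 down of 22, 13 up and 3 down of 22, and 41 up and 0 down of 55, in the order of the lists, beside 34.4% up and 30.9% down of all genes. In both drug comparisons and in the interaction 0 genes of these 4 lists passed by edgeR. At an unadjusted p under 0.05 the 4 lists counted, for D + Q against vehicle in sham, 0 up and 3 down of 15, 0 and 0 of 19, 0 and 4 of 22, and 0 and 5 of 51, beside 5.39% and 4.8% of all genes. In MOV they counted 1 and 0 of 15, 1 and 0 of 22, 0 and 1 of 22, and 1 and 0 of 56, beside 4.19% and 4.61%. In the interaction the counts were 2 and 0 of 15, 0 and 0 of 22, 3 and 0 of 22, and 7 and 1 of 56, beside 2.54% and 3.17%.

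Some genes of these lists are singled out here after their values were seen. Iigp1, an immunity-related guanosine triphosphatase induced by interferon gamma, stood at -1.24 with vehicle (adjusted p 0.164) and rose by 1.88 with D + Q (adjusted p 0.0158), with 3.08 in the interaction (p 0.00394, adjusted p 0.717). It had 29.1 ± 28.4 CPM in vehicle sham and 6.34 ± 3.30 CPM in D + Q sham. Igtp, Gbp6 and Irgm2 stood at -0.97, -0.78 and -0.75 with vehicle and did not pass. Of the other interferon-stimulated genes tested with vehicle, 39 lay above 0 and 15 below.

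Marker genes of immune and other cells moved with overload as well. The 10 macrophage markers together held 106.7 ± 39.1 CPM in vehicle sham, 117.6 ± 36.1 in D + Q sham, 609.3 ± 220.4 in vehicle MOV and 725.4 ± 50.0 in D + Q MOV, with Lyz2 the most abundant. The lowest MOV mouse, vehicle mouse 2 with 310.8 CPM, and the highest, vehicle mouse 4 with 924.6 CPM, are also the mice with the lowest and highest member mean of that group, 2.86 and 3.84, but mouse 3 was next to highest in the macrophage sum, 664.7 CPM, and next to lowest in the member mean, 2.90. In D + Q MOV mouse 2 had the lowest macrophage sum of its group, 674.0 CPM, and the highest member mean, 3.74, while the other 4 mice had the same order in both. Vehicle sham mice 4 and 5 led their group in member mean (2.84 and 2.74), macrophage sum (164.9 and 123 CPM) and MHC class II sum (184.2 and 147.7 CPM). In D + Q sham, mouse 4 had the highest member mean, 2.53, and mouse 2 the highest macrophage sum, 172.1 CPM. The 7 MHC class II genes went from 106.2 and 100.4 CPM in vehicle and D + Q sham to 459.6 and 609.5 CPM in MOV, with Cd74 the most abundant. Of these lists 9 of 10 and 7 of 7 genes rose in vehicle MOV against sham, beside 30.7% of all genes.

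T and NK cell markers were scarce. The 11 genes summed to 2.43 and 2.47 CPM in vehicle and D + Q sham and to 7.76 and 5.89 CPM in MOV, with Cd3e most abundant except in vehicle MOV, where it was Ccl5, and with 1 gene at 0 in every vehicle sham mouse and 2 in every D + Q sham mouse. The 7 B and plasma cell genes, nearly all Ighm, summed to 124.5, 119.5, 54.5 and 51.5 CPM in sham with vehicle, sham with D + Q, MOV with vehicle and MOV with D + Q. The 4 of 6 neutrophil genes with an entry summed to 1.23, 1.75, 4.86 and 3.64 CPM in the same order. The 7 plasmacytoid dendritic cell genes, cells known for making interferon, summed to 1035, 946.4, 644.3 and 604.6 CPM, but nearly all of it was Cox6a2, which muscle fibers also express.

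Fibroblast genes summed to 431.3, 648.5, 6989 and 9378 CPM in the same order of groups, led by Dcn in sham and Col3a1 in MOV, with 5 of 5 rising in vehicle MOV. Endothelial genes summed to 155.1, 176.9, 239.0 and 236.4 CPM with 5 of 7 rising. Muscle fiber genes, whose sums were 141328, 146896, 93366 and 86641 CPM, had 1 rising and 4 falling of 9. Beside these vehicle counts, 30.7% of all genes rose and 29.8% fell. Erythroid genes summed to 548.7, 394.7, 433.2 and 358.2 CPM, led by Hbb-bs, with 0 of 5 passing by edgeR, 0 at an unadjusted p under 0.05, and a highest mouse of 1028 CPM in vehicle MOV, mouse 2. In D + Q MOV against sham 10 of 10 macrophage, 7 of 7 class II, 5 of 5 fibroblast and 5 of 7 endothelial genes rose, beside 34.4% of all genes. Of the scarcer immune lists, 2 of 3 T and NK and 2 of 3 neutrophil genes tested rose in vehicle MOV, and the B cell and dendritic lists each had 1 gene up and 1 down. Among sham mice alone, 1 T and NK, 1 B cell and 2 neutrophil genes had enough counts to be tested. Others therefore entered the test through MOV mice, which favors genes that are higher there, so these counts are not read as a result. For D + Q against vehicle, in sham or MOV, and in the interaction, no gene of any marker list passed. The unadjusted counts in sham were 4 of 5 fibroblast and 2 of 7 endothelial genes up and 1 of 2 dendritic genes down, beside 5.39% and 4.8% of all genes. In MOV they were 4 of 5 fibroblast, 1 of 10 macrophage and 1 of 7 class II genes up, and 2 of 6 T and NK, 1 of 3 neutrophil and 2 of 9 muscle fiber genes down, beside 4.19% and 4.61%. In the interaction 0 were up, and 2 of 7 endothelial and 1 each of the T and NK, dendritic, neutrophil and muscle fiber genes were down, beside 2.54% and 3.17%. The part of these cells in the members' rise was not tested.

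**Figure D5:**
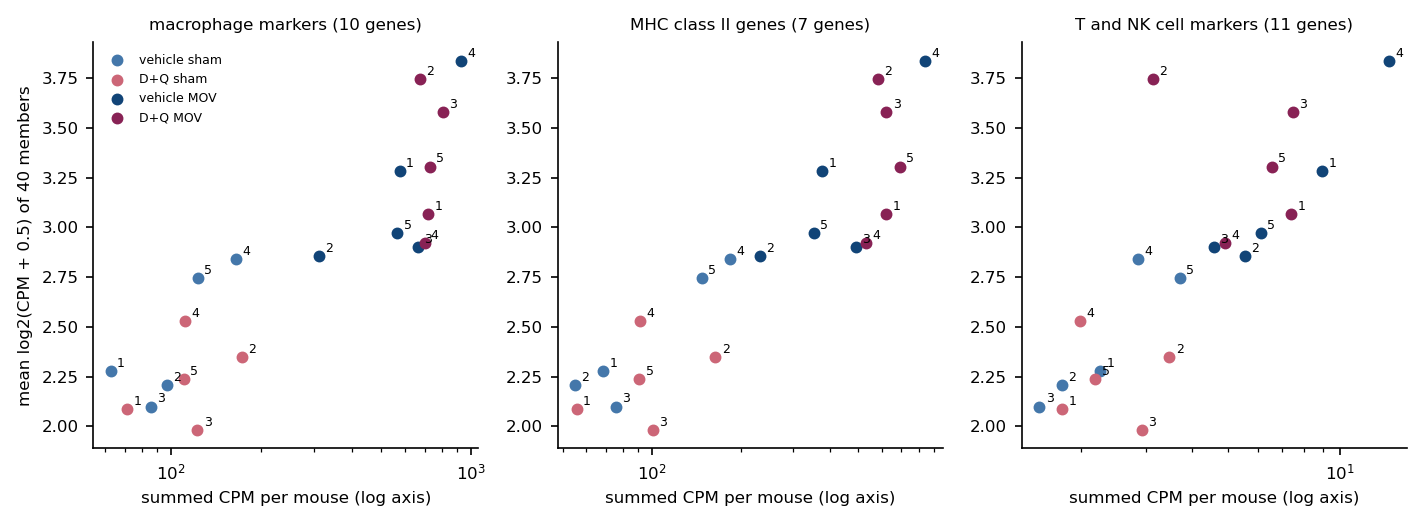
Mean log2(CPM + 0.5) of the 40 members against the summed CPM (log axis) of macrophage, MHC class II and T/NK marker genes, with a numbered point for each of the 20 mice colored by group. The MOV mice lie to the upper right of the sham mice in the macrophage panel, where no sham mouse exceeds 172.1 CPM and no MOV mouse is under 310.8 CPM.

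Some members share position as well as role. Of the 39 members placed on GRCm39, 6 lie on chromosome 17 between 34214987 and 35486475, which spans the class II and class I regions of the MHC: H2-K1, Psmb9, Tap1, Psmb8, Tap2 and H2-D1. The 4 Ifit genes lie together on chromosome 19 between 34527932 and 34632174, and Gbp7, Gbp3 and Gbp2 within 142236044 to 142343779 on chromosome 3. Transcripts of H2-K1 and H2-D1 are 90.8% identical over 1499 aligned bases, but only 1.55% of the 75-base windows of H2-K1 also occur in H2-D1, and Mx1 and Mx2 match at 93.6% over 738 bases. Of their exonic bases, Irf1 shares up to 31.4%, Isg15 31.1%, H2-K1 26.8%, Rtp4 26.6% and H2-D1 24.2% with a single other gene. Irf1 and Rtp4 also have smaller overlaps with further genes. These overlaps lie mostly on the opposite strand, so a share of the counts of these members may be of uncertain origin. The overlaps are those of GENCODE M39, and the study names a different transcriptome release for its counts.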

How the data were processed

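The authors deposited an expected count for each gene and mouse, made by alignment with STAR 2.7.8a to GRCm39 and the expectation-maximization quantifier of Partek Flow, with genes under 10 counts left out. Of these estimated counts 29.8% were not whole and were rounded. All 22660 genes and 20 mice were read, with 0 columns not used. Total counts per mouse ran from 17887532 to 26234518, and groups were taken from the sample labels. Pairwise tests used the 10 mice of the 2 groups compared, the interaction used all 20, and both were run in edgeR 4.0.16 in R 4.3.3: TMM scaling, a minimum of 10 counts in 5 or more mice per gene, robust quasi-likelihood F tests and Benjamini-Hochberg adjustment over all tested genes at 0.05. CPM use TMM factors over all 20 mice. Standard errors are the log2 fold change over the square root of F, and intervals cover 95%. Alternatives were DESeq2 1.42.0, RLE scaling, total counts only, no count filter, a count minimum of 50, all 20 mice in a single fit, a replicate block, limma-voom (limma 3.58.1) with sample quality weights, leaving out each mouse, and leaving out vehicle MOV mice 2 and 4 together, the last chosen after the data were seen. The code was tested on simulated data.

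Genes were named by rule. In each comparison of MOV with sham these were the 2 largest fold changes among the members of each role that passed, and in the D + Q comparisons and the interaction the 5 lowest p. Isg15, Irf7, Psmb8, B2m, H2-K1 and H2-D1 were always given. Values of every mouse are given for those and for the 2 largest rises and 2 lowest fold changes in vehicle MOV against sham. Of other lists the 3 largest rises and falls that passed are given, and of marker lists the sums. A withheld item is not reported here. The members and lists were chosen with earlier results of these data known. Promoter and gene positions used RefSeq windows and GENCODE M39, with Python 3.11.15, pandas 2.3.3, Biopython 1.88 and matplotlib 3.10.9.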

Additional observations from a re-analysis of the deposited data

Results flagged for a closer look

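In each group, for each member and for the mean over the members, a mouse standing apart from the other 4 was sought with Dixon's ratio at a critical value of 0.71. It was met in 19 of 164 group checks. The critical value is meant for about 1 in 20 by chance in independent, normally distributed values. The members share the same mice and CPM need not be normally distributed, so the chance rate here is not known.

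In vehicle sham, mouse 4 stood above the others for Ddx58 at 5.13 CPM (others 2.59 to 3.13), Irf7 at 7.63 (2.42 to 3.71) and Oasl2 at 6.23 (2.06 to 2.59). In vehicle MOV, mouse 4 stood above the others for Dhx58 at 3.94 CPM (1.70 to 2.17), Irf7 at 23.1 (6.95 to 8.87), Stat2 at 21.0 (9.55 to 12.7), Usp18 at 5.25 (2.03 to 2.65) and Isg15 at 8.58 (2.07 to 3.41). The same mouse did so for Oasl2 at 16.6 CPM (6.502 to 9.12), Bst2 at 37.2 (11.1 to 16.4), Ly6e at 109.7 (50.0 to 65.6), Gbp3 at 12.9 (5.81 to 7.27) and Psmb9 at 8.75 (2.96 to 4.58).

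In D + Q sham, mouse 3 had 0.781 CPM of Mx2 (others 0.292 to 0.357) and mouse 4 had 10.4 CPM of Ifi35 (7.76 to 8.51). In D + Q MOV, mouse 3 had 3.04 CPM of Mx1 (0.982 to 1.55), and mouse 2 had 26.8 CPM of Gbp2 (6.34 to 10.6), 22.7 of Gbp7 (7.32 to 9.70) and 9.21 of Psmb9 (3.57 to 5.00). The cause of these differences was not tested.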

How the results depend on the processing

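Of 1375 results under other settings, which cover the genes named by rule and the counts, 1135 log2 fold changes kept their reading, 20 lost their call and 16 turned sign. Of the counts, 7 were scored as moved, all of them members that fell, from 0 to 1. The other 197 were scored as kept, which does not mean unchanged. The members that rose with vehicle, 29 in the main fit, ran from 21 with a mouse left out to 36 with total counts only. In vehicle MOV against sham the members that fell numbered 1 with DESeq2, 1 with a replicate block, and 0 to 1 with 1 mouse left out (1 without vehicle sham replicate 2 or 3 or vehicle MOV replicate 1 or 4), and in D + Q MOV against sham 1 with the block. With the block 31 members rose in the vehicle comparison and 36 in the D + Q comparison. The labels give no pairing, and samples with the same number correlated between -0.215 and 0.232, with not every sample closest to its own number. For D + Q against vehicle in MOV, Irf7 stood at 0.020 with total counts only, 0.035 with the block, 0.11 with limma-voom and 0.38 without vehicle MOV mice 2 and 4 together, and Isg15 at 0.036, 0.083 and 0.45 with the block, limma-voom and without those mice. Without single mice Irf7 stood at 0.44 (vehicle MOV replicate 4), 0.13 (D + Q MOV replicate 1), 0.13 (replicate 4) and 0.074 (replicate 5), and Isg15 at 0.46, 0.045 and 0.087 without the same vehicle mouse and D + Q MOV replicates 1 and 4. Over all such fits Irf7 ran from -0.20 to 0.44 and Isg15 from -0.28 to 0.46. Without vehicle sham replicate 4, H2-D1 in D + Q against vehicle sham stood at 0.0045 (range -0.14 to 0.0045) and Isg15 in the interaction at -0.064 (range -0.064 to 0.79). The cause was not tested. Psmb9, Psmb8 and H2-K1 (vehicle) and Gbp3 (D + Q) lost their call in MOV against sham in fits with a mouse left out. Of other members, Irf9, Parp14, Ifit1, Xaf1 and Tap2 also did so with vehicle. Without a count filter, where more genes are tested, 26 of the 29 vehicle calls were kept, and Psmb9 (adjusted p 0.0582), H2-K1 (0.0780) and Irf9 (0.0672) were not. Psmb9 did not pass without vehicle MOV mice 2 and 4 (0.0778), nor Gbp3 with the block (0.0841). In D + Q MOV against sham Gbp7 passed with the block (0.61, adjusted p 0.00736) and with total counts only (adjusted p 0.0189). Gbp2 passed there with DESeq2 (0.0229), total counts only (0.0162), a count minimum of 50 (0.0453) and all 20 mice in a single fit (0.0251). In the D + Q comparisons and the interaction 0 members passed under every setting. With 5 mice per group, bulk RNA, a single day and no record of strand, small drug effects and the cells behind the values are beyond these data.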
